A study of Mus musculus with 4 samples.

Results

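The let-7 family with miR-98 was followed through mouse molar development as 9 array probes, chosen by name among 696 miRNA probes: mmu-let-7a, mmu-let-7b, mmu-let-7c, mmu-let-7d, mmu-let-7e, mmu-let-7f, mmu-let-7g, mmu-let-7i and mmu-miR-98, written here without the prefix. All were detected at every stage, so all 36 member values were measured. RNA came from mandibular molar tooth germs of untreated embryos of ICR, an outbred mouse strain, at embryonic day 11, 12, 14 or 16 (E11, E12, E14, E16). Each stage had 1 Agilent array of 1 colour, and the sources used here do not say how many embryos stand behind an array. With 1 array per stage there was no replicate check and no test between stages: the number of arrays limits the precision, and every error printed with ± is the measurement error that the file states for a signal, or the combination of such errors, and holds nothing of the variation between litters.

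let-7 miRNAs repress messenger RNAs that pair with their shared seed, the bases near the 5′ end of the miRNA, and known targets include the growth regulators Hmga2, Lin28 and Ras. Mature let-7 is scarce in early embryonic cells and accumulates as cells differentiate. The RNA-binding Lin28 proteins hold it back by binding let-7 precursors in the loop between their arms. The days sampled cover the thickening of the dental epithelium and the bud, cap and bell stages of the molar.

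The 9 mature sequences are shown because the members can be told apart only outside the seed. They come from RefSeq (build GRCm38.p6), which held all 9, and capitals mark the seed, bases 2 to 8 counted from the 5′ end.
let-7a: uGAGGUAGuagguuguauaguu
let-7b: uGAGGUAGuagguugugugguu
let-7c: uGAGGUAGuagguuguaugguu
let-7d: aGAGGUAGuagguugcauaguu
let-7e: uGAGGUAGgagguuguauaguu
let-7f: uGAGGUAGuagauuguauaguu
let-7g: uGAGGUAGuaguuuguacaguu
let-7i: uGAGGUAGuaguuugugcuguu
miR-98: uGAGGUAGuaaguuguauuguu

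All 9 carry the seed GAGGUAG and are 22 bases long. Against let-7a, counted from its 5′ end, let-7c differs by A19G, let-7e by U9G and let-7f by G12A, 1 base each. let-7b differs from let-7a by A17G and A19G, and from let-7c by 1 base. Of the 36 pairs, 4 differ at 1 base and 10 at 2 bases. Probes for such close sequences can bind each other's targets, and how much they did on these arrays was not tested. Signals of different probes also depend on each probe's affinity, so levels were compared between stages and never between members. This seed is carried by 11 mature miRNAs of the RefSeq set. Of the other two, let-7k had no probe under that name and miR-1961 was not detected at any stage.

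In 8 of the 9 members, the signal was lowest at E11 and highest at E16, with E12 and E14 between in that order. These are the deposited signals, in arbitrary units and not scaled between arrays. On the same signals, 29.9% of the 197 miRNAs detected on all arrays were also higher at each step between stages. let-7b went from 25.4 ± 4.3 at E11 to 248.7 ± 19.2 at E12, 660.2 ± 48.0 at E14 and 1193 ± 87 at E16. All 4 levels lay far apart, and at E11 the signal was 5.96 times its error. miR-98, encoded on the X chromosome, also had a dim first array, with 26.7 ± 5.2, 86.9 ± 8.9, 104.0 ± 8.9 and 193.8 ± 15.0. Its E12 and E14 values lay within 2 combined errors of each other.

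let-7c went from 191.8 ± 14.8 at E11 through 759 ± 56 and 1342 ± 99 to 2308 ± 170 at E16. let-7i had 144.1 ± 11.4, 710 ± 51, 1035 ± 75 and 1836 ± 132. Both were higher at each later stage by more than 2 combined errors. let-7d followed with 154.6 ± 12.2, 536 ± 40, 817 ± 60 and 1325 ± 97, again with 4 separate levels. let-7a had 666 ± 49, 2165 ± 159, 2706 ± 199 and 3851 ± 284. Its 4 levels, too, were in the order of the stages and more than 2 combined errors apart. All of these are unscaled signals. With the scaling described below, the log2 differences from E12 to E14 were smaller. let-7a stood at -0.09 ± 0.15, let-7d at 0.20 ± 0.15 and let-7i at 0.13 ± 0.15, all within 2 errors of 0. let-7c, at 0.41 ± 0.15, was not. From E14 to E16 scaled let-7a, at 0.15 ± 0.15, was also within 2 errors of 0.

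let-7f had 431 ± 34, 1612 ± 128, 1942 ± 152 and 3485 ± 271, and let-7g had 164.5 ± 12.8, 597 ± 44, 627 ± 46 and 1114 ± 81. In both, as in miR-98, E12 and E14 were not separated by 2 combined errors while E11 and E16 were. let-7e was the member apart, with 487.8 ± 35.2 at E11, 881 ± 64 at E12, 716 ± 52 at E14 and 760 ± 55 at E16. Its highest signal was at E12, and its E14 and E16 signals did not differ beyond their errors.

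**Figure D1:**
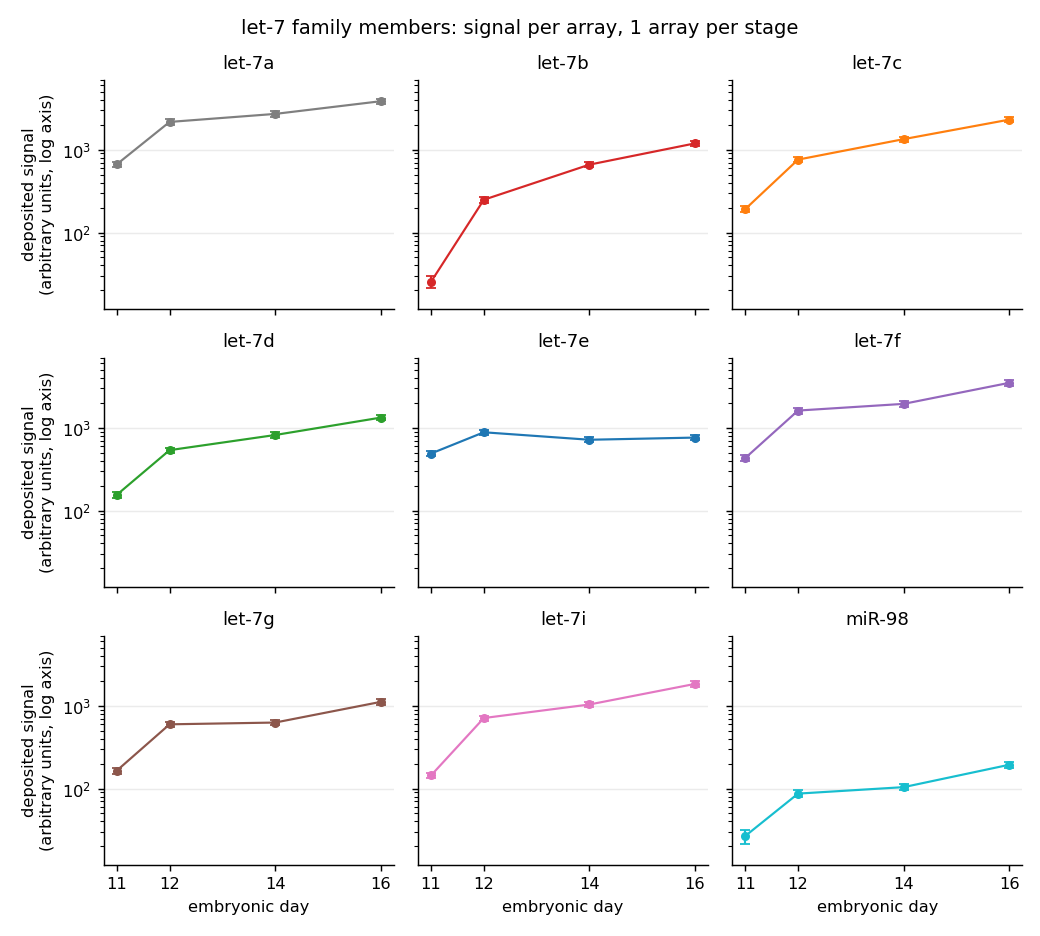
Deposited signal (arbitrary units, log axis) of each let-7 family member against embryonic day; points are single arrays and bars the stated signal error. In 8 members the signal climbs from E11 to E16, steepest for let-7b (25.4 to 1193), while let-7e peaks at E12 (881). Signals are not scaled between arrays, and 29.9% of the 197 miRNAs detected on all arrays were higher at each step.

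Arrays differed in overall brightness, so the differences between stages depend on how arrays are scaled. Each log2 signal was taken relative to the 75th percentile of its array over the 197 miRNAs detected on all 4 arrays, which stood 1.44 higher (log2) at E16 than at E11. A difference is the later minus the earlier stage on that log2 scale. Counts of higher or lower miRNAs take those detected on both arrays and at least 2-fold apart, which is a rule of size and not of significance. Because this scaling puts the median of all miRNAs at -0.74 between the first and last stage, members are also given relative to that median, a quantity that no scaling by 1 factor per array can change.

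Between E11 and E16, 8 of the 9 members were at least 2-fold higher, against 13.7% of the 205 miRNAs detected at both stages. On the deposited signals the same count stood against 44.9%. let-7b stood at 4.12 ± 0.26, a 17.4-fold difference and entry 2 from the top of all 205. let-7i (2.24 ± 0.15) and let-7c (2.15 ± 0.15) came next, and let-7a was the smallest of the 8 at 1.10 ± 0.15. let-7e stood at -0.80 ± 0.15, entry 107 of 205, and was 0.05 below the median of all miRNAs. The family median was 1.58, which is 2.33 above the median of all miRNAs. In RNA from whole tooth germs, more cells containing a miRNA and more of it per cell cannot be told apart.

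The order of the members by this difference was let-7b, let-7i, let-7c, let-7d, let-7f, miR-98, let-7g, let-7a and let-7e. Neighbours in this order were separated by more than 2 combined errors at 3 places. let-7b stood 1.88 ± 0.31 above let-7i, let-7c 0.49 ± 0.22 above let-7d, and let-7a 1.89 ± 0.21 above let-7e. The 4 neighbouring steps from let-7d down to let-7a, and that from let-7i to let-7c, were all within 2 combined errors.

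Most of the difference was already there at E12. From E11 to E12 8 of the 9 members, all but let-7e, were at least 2-fold higher, against 9.45% of the 201 miRNAs detected at both stages, and the family median was 1.19, which is 1.39 above the median of all miRNAs. let-7b was at 2.62 ± 0.27 and let-7i at 1.63 ± 0.15. let-7a (1.03 ± 0.15) and miR-98 (1.03 ± 0.32) passed 2-fold only narrowly. With the 75th percentile taken over all miRNA probes, 5 members passed, and with quantile normalization 6, each against 6.47% of the 201. let-7e was at 0.18 ± 0.15, within 2 errors of 0.

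Between E12 and E14 the family as a whole moved little. No member was at least 2-fold higher, against 12.7% of 212 miRNAs, and none was 2-fold lower, against 15.1%. The family median was -0.09, on a step where the median of all miRNAs was -0.40. let-7b was nearest to the size rule, at 0.9989 ± 0.15, and let-7c stood at 0.41 ± 0.15. let-7e (-0.71 ± 0.15) and let-7g (-0.34 ± 0.15) were lower by more than 2 errors. let-7g was within its error of 0 with median scaling (-0.10) and without scaling (0.07), and let-7c with quantile normalization (0.017). The sign of this family median depends on the scaling: it was positive with median scaling, with quantile normalization and on the deposited signals, where it reached 0.32.

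From E14 to E16 members were again higher, by similar amounts. The family median was 0.47, which is 0.53 above that of all miRNAs. No member passed 2-fold, against 7.36% of 231 miRNAs. In all, 7 members lay between 0.34 and 0.54 and were higher by more than 2 errors, with miR-98 at 0.54 ± 0.17 and let-7b at 0.50 ± 0.15. How many of the 231 miRNAs passed 2 errors was not counted, so these 7 are not set against a share. let-7a (0.15 ± 0.15) and let-7e (-0.27 ± 0.15) were within 2 errors of 0. let-7a was higher by more than 2 errors under every other scaling tried, from 0.31 with the 75th percentile over all probes to 0.58 with quantile normalization. The steps differ in length. Per day, the family median stood 1.39 above that of all miRNAs from E11 to E12, a single day, 0.15 from E12 to E14 and 0.27 from E14 to E16.

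let-7b, let-7c, let-7d and let-7i were higher at each of the 3 steps, 4 of 9 members against 9.64% of the 197 miRNAs detected throughout. From E12 to E14 let-7d (0.20 ± 0.15) and let-7i (0.13 ± 0.15) were within 2 errors of 0. On the same scaling let-7a, let-7e, let-7f, let-7g and miR-98 stood between -0.71 and -0.09 at that step. With quantile normalization the members higher at each step were let-7a, let-7b, let-7c, let-7d and miR-98, against 21 of the 197 miRNAs. From E12 to E14 let-7i then turned to -0.09, and let-7a and miR-98 to 0.05 each. On the deposited signals 8 members were higher at each step, against 29.9% of the 197.

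**Figure D2:**
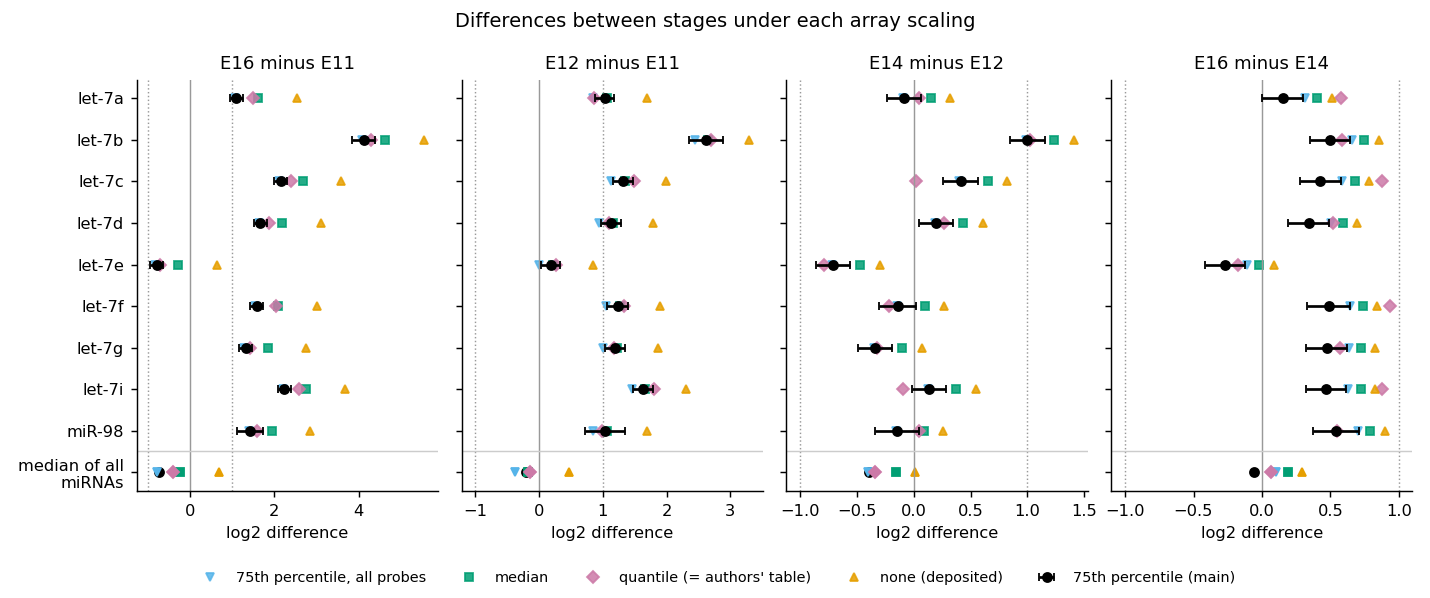
Log2 difference between stages (horizontal axis) for each member and for the median of all miRNAs, under 5 array scalings; bars on the main scaling are combined signal errors, solid lines mark 0 and dotted lines 2-fold. From E11 to E16 every scaling leaves 8 members right of the 2-fold line and let-7e between -0.83 and 0.64, near the median of all miRNAs.

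Changes of different members can be compared without any choice of array factor, because a factor that multiplies a whole array cancels when 2 members are subtracted. From E11 to E16, 27 of the 36 pairs of members differed by more than 2 combined errors. The widest pair was let-7b over let-7e, at 4.91 ± 0.30 on the log2 scale. let-7b differed from all 8 other members, and so did let-7e. Among the remaining 7 members 12 of 21 pairs did, with let-7i over let-7a the widest at 1.14 ± 0.21. Quantile normalization does not multiply by 1 factor, and with it 2 of the 36 pairs turned their sign.

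The members drew apart early and late to different degrees. From E11 to E12, 18 of 36 pairs differed by more than 2 errors, and 3 of 21 among the members other than let-7b and let-7e. From E12 to E14 the counts were 20 of 36 and 6 of 21. With quantile normalization 6 of the 36 pairs of that step turned their sign, among them let-7c over let-7a (0.50 ± 0.21, turning to -0.033) and let-7c over miR-98 (0.56 ± 0.24, turning to -0.029). From E14 to E16 they were 8 of 36 and 0 of 21: on that step all 8 pairs that differed involved let-7e, and let-7b stood 0.07 ± 0.21 from let-7c. With quantile normalization 14 of the 36 pairs of that step turned their sign, none of them a pair with let-7e. The difference of let-7b from the rest was therefore measured between E11 and E14, and that of let-7e at all 3 steps, with 7 of its 8 pairs past 2 errors from E12 to E14.

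Members 1 base apart differed in their change between stages. let-7a and let-7e, with 1 base between them (U9G), differed by 1.89 ± 0.21 from E11 to E16. let-7b and let-7c, also with 1 base between them, differed by 1.96 ± 0.31, a 3.90-fold difference in change. let-7a and let-7f (G12A) differed by 0.48 ± 0.22, and let-7a and let-7c (A19G) by 1.06 ± 0.21. let-7f and miR-98, with 3 bases between them, had the closest courses among the members. The root mean square difference of their log2 signals, each centred on its own mean over the 4 arrays, was 0.086. let-7g and miR-98 were about as close, at 0.094. let-7i was nearest to let-7c by this measure (0.12), although 4 bases separate them. let-7b and let-7e had no near neighbour, at 0.77 from let-7i and 0.71 from let-7a.

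**Figure D3:**
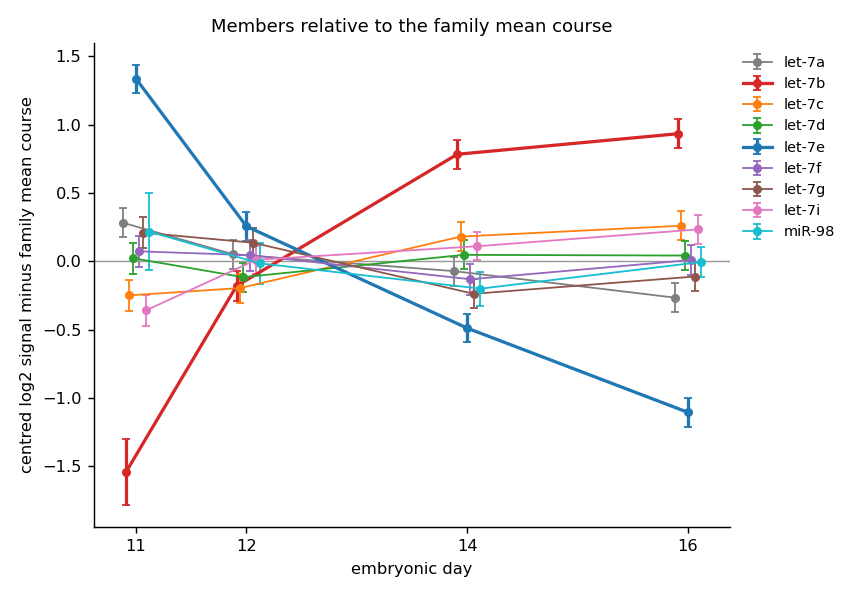
Log2 signal of each member, centred on its own mean over the 4 arrays, minus the mean of the 9 centred courses, against embryonic day (points are slightly offset in x); bars are the member's own signal errors. let-7b runs from -1.54 at E11 to 0.93 at E16 and let-7e from 1.34 to -1.10, while the other 7 stay within 0.36 of the family mean.

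The members come from 12 hairpin genes on 7 chromosomes, several of them next to each other (RefSeq, GRCm38.p6). let-7d, let-7f-1 and let-7a-1 lie in that order of rising coordinates on chromosome 13, within chr13:48536012-48538272 on the minus strand. let-7c-2 and let-7b lie 621 bases apart on chromosome 15, inside the long noncoding RNA gene Lncppara, with let-7b at chr15:85707319-85707403. let-7f-2 and miR-98 lie 785 bases apart on chromosome X inside Huwe1. let-7g (chr9:106178840-106178927) lies inside Wdr82, and let-7i (chr10:122985640-122985724) has no spanning gene in the table. The table gives gene spans and no exons, so whether a hairpin is exonic or intronic is not stated here.

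The hairpins of let-7e, let-7c-1 and let-7a-2 each have miR-99 or miR-100 and miR-125 genes beside them, miRNAs that are not let-7 relatives. let-7e lies on chromosome 17 at chr17:17830352-17830444 inside Spaca6, 94 bases from miR-99b and 367 bases from miR-125a. let-7c-1 lies on chromosome 16 at chr16:77599657-77599750, 656 bases from miR-99a and 46522 bases from miR-125b-2. let-7a-2 lies on chromosome 9 at chr9:41536716-41536811, inside the noncoding Mir100hg, 5211 bases from miR-100 and 45114 bases from miR-125b-1. let-7a, let-7c and let-7f each have 2 hairpin genes, and miR-125b as well, and the mature probes cannot separate them.

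From E12 on, let-7e, miR-99b and miR-125a-5p, encoded together on chromosome 17, changed by similar amounts. From E11 to E16 miR-99b stood at -1.86 ± 0.15 and miR-125a-5p at -1.46 ± 0.15, so that let-7e, miR-99b and miR-125a-5p were all below 0. miR-125a-3p, a dim probe for the other arm of miR-125a, did not follow them: it stood at 1.91 ± 0.49 from E12 to E14 and -2.49 ± 0.41 from E14 to E16. miR-99b and miR-125a-5p also stayed below 0 on the deposited signals (-0.43 and -0.02, the latter within its error of 0), where let-7e turned to 0.64. let-7e was still 1.07 ± 0.21 above miR-99b and 0.66 ± 0.21 above miR-125a-5p. Most of the gap to miR-99b came from E11 to E12, where let-7e was 0.81 ± 0.21 above it. At that step let-7e was 0.37 ± 0.21 above miR-125a-5p, within 2 combined errors. From E12 to E14 and from E14 to E16 it was within 1 combined error of both.

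From E11 to E16 let-7c and let-7a were also above the miRNAs encoded beside let-7c-1 and let-7a-2. let-7c exceeded miR-99a by 1.37 ± 0.22 from E11 to E16 and let-7a exceeded miR-100 by 0.70 ± 0.23. miR-99a itself was at 0.79 ± 0.16 and miR-100 at 0.40 ± 0.18, both positive under every scaling tried. miR-125b-5p was at -0.86 ± 0.17, turning to 0.58 on the deposited signals and 0.33 with quantile normalization, and lay 3.01 ± 0.23 below let-7c and 1.95 ± 0.23 below let-7a. let-7b exceeded let-7c, its neighbour on chromosome 15, by 1.31 ± 0.31 from E11 to E12 and by 0.59 ± 0.21 from E12 to E14. The probes of let-7a, let-7c, let-7f and miR-125b each read the product of hairpin genes on different chromosomes. Differences that involve them are therefore between probes and not within a locus. Among the members with genes on chromosome 13, let-7a stood 0.57 ± 0.22 below let-7d and 0.48 ± 0.22 below let-7f over the whole course. Both were beyond 2 combined errors. let-7d and let-7f differed by 0.08 ± 0.22, and miR-98 and let-7f, neighbours on chromosome X, by 0.16 ± 0.34, both within 2 combined errors.

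**Figure D4:**
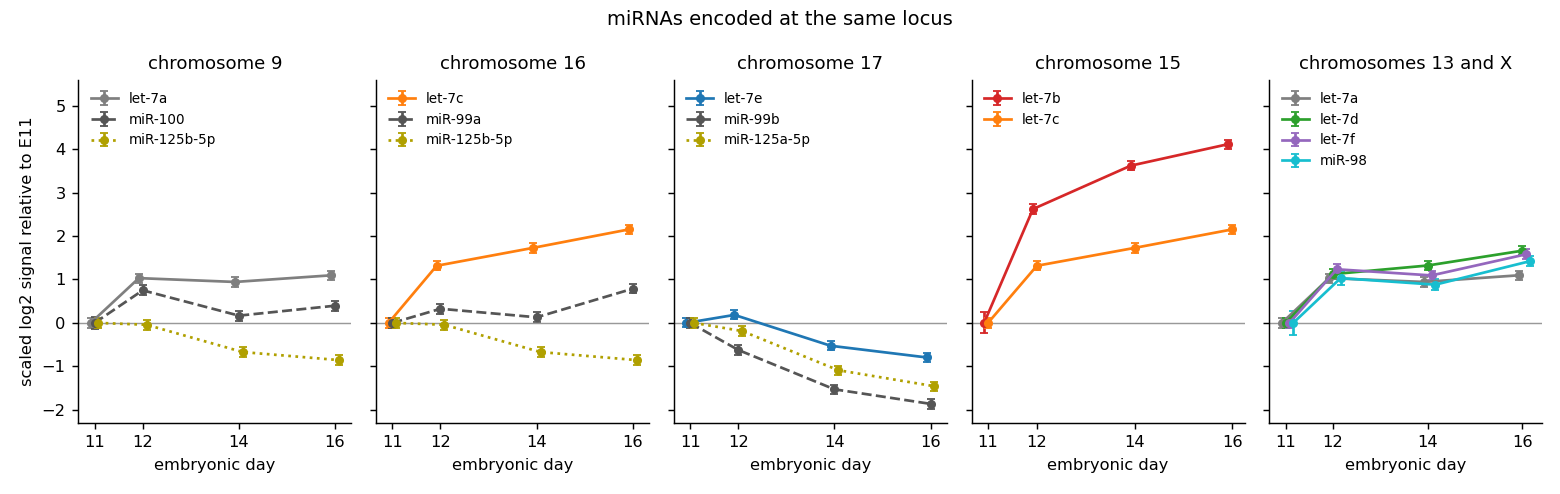
Scaled log2 signal relative to E11 against embryonic day for miRNAs encoded at the same locus, 1 panel per locus (chromosomes 13 and X share the last); points are single arrays, slightly offset in x, and bars the error of that array's signal. On chromosome 17 let-7e, miR-99b and miR-125a-5p all end below their E11 level, while let-7b ends 4.12 above it. let-7a, let-7c, let-7f and miR-125b also have a hairpin gene on another chromosome, which their probes do not separate.

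No probe for the other arm of these precursors was detected. All 7 minor-arm probes (let-7a*, let-7b*, let-7c-1*, let-7d*, let-7f*, let-7g* and let-7i*) were undetected at every stage. Of all 696 miRNA probes, 30.0% (E11) to 35.9% (E16) were detected on an array. For let-7e and miR-98 no minor-arm probe was listed. miR-202-3p, which shares bases 2 to 7 of the let-7 seed and differs at base 8, is shown for contrast.
miR-202-3p: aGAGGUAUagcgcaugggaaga

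Its signal was 126.7 ± 10.2 at E11, 102.2 ± 9.7 at E12, 195.5 ± 14.7 at E14 and 157.7 ± 12.7 at E16. Its difference between E11 and E16 was -1.12 ± 0.16, and 0.32 without scaling.

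Among the 188 other miRNAs detected on all arrays, the 5 whose courses lay nearest to the family mean course were miR-143, miR-365, miR-378, miR-23a and miR-27b. The measure was the root mean square difference of centred log2 signals over the 4 arrays. It was 0.08 for miR-143, 0.09 for miR-365, 0.15 for miR-378, 0.16 for miR-23a and 0.22 for miR-27b. Of the members, let-7d (0.07) and let-7f (0.08) were about as near. The remaining members lay farther off than miR-143 and miR-365, from 0.15 (miR-98) to 0.99 (let-7b). Members, unlike the other miRNAs, are part of the mean they are measured against. miR-143, known from smooth muscle and other mesenchymal cells, had signals of 14.5 ± 3.7, 52.5 ± 7.4, 65.8 ± 6.9 and 124.5 ± 10.7. Its difference from E11 to E16 was 1.67 ± 0.39. The list of mesenchymal markers that holds it had a median of -0.59 over 6 members. Of these 6, miR-143 was the only 1 at least 2-fold higher, against 13.7% of all 205 miRNAs. Without let-7b and let-7e in the family mean the same 5 miRNAs were nearest, with miR-378 and miR-23a exchanged.

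The tissue label was read against marker miRNAs. Epithelial markers (the miR-200 family, miR-203 and miR-205) were detected for 6 of 7 at E11 and 7 of 7 from E12 on, and mesenchymal markers (miR-199a, miR-214 and others) for 6 of 7 at each stage. The sums here are of deposited signals and the medians of scaled differences. The summed signal of the epithelial list went from 1795 to 9364 between E11 and E16, with a median log2 difference of 1.35 over 6 members (2.78 without scaling), and that of the mesenchymal list from 10921 to 12870, with a median of -0.59 (0.85 without scaling). The 4 muscle markers, and neural miR-9 and miR-124, were detected on no array. Of the 5 neural markers 1 to 3 were detected at a stage. Endothelial markers had a median of 0.09 over 2 members (1.53 without scaling) and erythroid miR-451 stood at 0.15 (1.59 without scaling). Of the 3 leukocyte markers none was detected at E11, 1 at E12, 1 at E14 and 2 at E16, with a summed signal of 146.8 at E16. The part of these cell types in the let-7 differences was not tested.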

How the data were processed

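Total RNA of 4 samples (100 ng each, labelled with Cy3 per the labels' protocols) was measured on 1 array per stage. Per the file headers, the deposited intensity is the total signal of each miRNA, with its error and a detection flag whose values (other) are 0 or 1; undetected features are written as 0.1. The software version, array design and background correction were not named in the labels or files. The authors' series table of intensity was recovered by quantile normalization over all features, all 929 detected values within 0.1%, so quantile normalization and that table are the same alternative. Its scale is linear and no centring was found; its column medians are 0.1 over all probes and 122.7, 106.2, 83.7 and 83.0 over detected ones.

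Control features (22 of 718) were left out, and log2 signals were taken relative to each array's 75th percentile over miRNAs detected on all arrays. Arrays detected 209 to 250 miRNAs, and member errors were 7.19% to 19.4% of the signal. The errors of a log2 difference combine the stated errors and hold nothing of the scaling. The computation used Python 3.11.15, numpy 2.4.6 and pandas 2.3.3 and was tested on simulated data. Named were all members, miRNAs encoded beside them, minor arms, probes of the same seed, the 5 nearest courses and each member's nearest member; miR-202-3p and miR-125a-3p, and the pairs singled out, were chosen after their values were seen. A search of the precursor loops is not reported here. The members and lists were chosen with earlier results of these data known.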

Additional observations from a re-analysis of the deposited data

How the results depend on the processing

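No paired analysis was possible because each stage has 1 array. The range among members from E11 to E16 kept its ends, let-7b and let-7e, under every alternative (4.91 to 5.002). The count of members at least 2-fold higher from E11 to E16 was 8 under every alternative, against 13.7% to 44.9% of all miRNAs. The family median over that span was 2.10 with median scaling, 1.88 with quantile normalization and in the authors' table, 3.02 without scaling, and 1.98 where a signal had to be at least 5 times its error. From E11 to E12 it was 1.01, with 5 members past 2-fold, with the 75th percentile over all miRNA probes, and 1.86 without scaling. From E12 to E14 its sign turned, to 0.15 with median scaling, 0.017 with quantile normalization and in the authors' table, 0.32 without scaling and 0.059 with the stricter detection. In each of these cases, and with a 1.5-fold rule, 1 member passed, let-7b, whose main value lies just under 2-fold. Of all 212 miRNAs, 34 passed with median scaling, 30 with quantile normalization and 36 without scaling. With the stricter detection 20 of 176 miRNAs passed, and with the 1.5-fold rule 36 of 212. From E14 to E16 the median was 0.63 with the 75th percentile over all probes, 0.72 with median scaling and 0.83 without scaling. Members higher at each step numbered 5 with quantile normalization, where let-7i was lost and let-7a and miR-98 were gained. Of all 197 miRNAs, 21 were higher at each step there. With the stricter detection 6 members stood against 21 of 150 miRNAs. With median scaling 7 stood against 31 of 197, and without scaling 8 against 59 of 197. Of the values of single miRNAs past 2-fold, miR-125a-3p (0.14) and miR-202-3p (0.32) turned their sign between E11 and E16 without scaling. What the arrays cannot give is a spread between litters. At E11 let-7b and miR-98 were dim, at 5.96 and 5.15 times their errors.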

Other observations

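miR-125a-3p, the other arm of the miR-125a precursor next to let-7e, gave 7.68 ± 1.87 at E11, 7.43 ± 2.38 at E12, 37.2 ± 4.0 at E14 and 8.50 ± 2.24 at E16. It peaked at E14, where the 5p arm, at 455 ± 34, was lower than at E12 (641 ± 48). At the other 3 stages the 3p arm lay near the lower limit of detection, and at E12 it was the lowest detected signal of the array (7.43).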
